A study of Mus musculus with 6 samples.

Results

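The variable segments of the immunoglobulin kappa light chain were followed in RNA of mouse colon. The members were chosen by their summed count. They are all rows of the deposited gene table whose symbol starts with Igkv and whose counts over the 6 libraries sum to 10 or more, which gave 86 of 100 Igkv rows and 86 of 21899 rows in all. The study holds 6 libraries of whole colon RNA, 3 from Adamts4 knockout mice (KO) and 3 from wild-type mice (WT). Every mouse, KO or WT, had received 2.5% dextran sodium sulfate (DSS), a polymer that injures the colon lining, for 7 days, so no untreated level is known here. The sources used here name no strain, sex, age or litter and do not describe the knockout allele. The labels number the libraries 1 to 3 within each genotype and do not say whether each came from 1 animal or a pool, so the p-values measure only the spread between these libraries.

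A kappa light chain gene is assembled in a developing B cell by joining 1 of many germline Igkv segments to a short Igkj segment, after which it is transcribed together with the constant region Igkc. Plasma cells, which secrete antibody and in the gut make mostly IgA, carry far more of this RNA than resting B cells, and all descendants of a B cell share its joined segment. The mix of Igkv segments in a tissue therefore mirrors which B lineage clones contributed RNA, and germline segments fall into families by sequence likeness. In bulk RNA fewer cells of a type and less RNA per cell cannot be told apart.

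Sequences are shown for the segments on which the comparison turns. These are the leading segment of each KO library and its family partner, and the segment that was higher in KO and its nearest relative. The others are the pair that gave each WT library its leading segment, and the 3 segments that passed the test. Each run is the last 150 coding bases of the germline segment, 5′ to 3′, from the GENCODE M21 transcripts (GRCm38), in lower case up to the codon of the conserved second cysteine. Capitals mark the germline bases after that codon, the start of the third complementarity-determining region, which is the part that differs most between segments and where the join to Igkj is made.
Igkv10-96: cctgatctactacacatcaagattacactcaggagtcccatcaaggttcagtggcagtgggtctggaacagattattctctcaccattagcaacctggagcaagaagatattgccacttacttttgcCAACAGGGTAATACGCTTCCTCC
Igkv10-94: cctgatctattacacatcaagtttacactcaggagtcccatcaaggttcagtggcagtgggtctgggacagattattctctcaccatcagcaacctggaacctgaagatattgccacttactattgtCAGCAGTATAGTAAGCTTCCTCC
Igkv6-32: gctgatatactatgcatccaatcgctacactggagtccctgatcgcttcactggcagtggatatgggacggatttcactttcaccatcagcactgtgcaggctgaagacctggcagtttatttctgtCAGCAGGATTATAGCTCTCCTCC
Igkv6-17: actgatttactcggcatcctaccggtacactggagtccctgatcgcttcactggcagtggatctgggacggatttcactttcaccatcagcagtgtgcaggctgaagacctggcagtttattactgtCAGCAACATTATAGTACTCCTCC
Igkv1-110: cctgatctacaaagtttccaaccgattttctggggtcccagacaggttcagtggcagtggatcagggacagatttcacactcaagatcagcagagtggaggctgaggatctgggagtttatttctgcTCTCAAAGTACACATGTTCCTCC
Igkv1-117: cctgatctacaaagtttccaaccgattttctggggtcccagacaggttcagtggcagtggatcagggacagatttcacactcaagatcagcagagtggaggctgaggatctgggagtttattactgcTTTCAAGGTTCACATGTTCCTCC
Igkv14-126: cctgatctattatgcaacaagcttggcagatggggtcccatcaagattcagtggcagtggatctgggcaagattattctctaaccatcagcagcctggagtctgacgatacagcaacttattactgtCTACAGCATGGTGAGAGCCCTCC
Igkv16-104: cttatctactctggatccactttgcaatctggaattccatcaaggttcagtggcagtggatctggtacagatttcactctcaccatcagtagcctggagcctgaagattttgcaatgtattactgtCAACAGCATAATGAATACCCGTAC
Igkv12-46: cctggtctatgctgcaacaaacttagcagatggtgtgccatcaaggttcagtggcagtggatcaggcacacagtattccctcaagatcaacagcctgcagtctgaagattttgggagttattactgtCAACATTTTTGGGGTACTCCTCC

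These runs lie in the last coding exon of each segment, at chr6:68631963-68632112 for Igkv10-96, chr6:68704508-68704657 for Igkv10-94, chr6:70074024-70074173 for Igkv6-32 and chr6:69764523-69764672 for Igkv12-46, all on the minus strand. On the plus strand are Igkv6-17 at chr6:70371844-70371993, Igkv1-110 at chr6:68271118-68271267, Igkv1-117 at chr6:68121678-68121827, Igkv14-126 at chr6:67896493-67896642 and Igkv16-104 at chr6:68425923-68426072. Igkv1-110 and Igkv1-117 differed at 4 of the 150 bases shown, 3 of them within the 23 capital bases. Igkv10-96 and Igkv10-94 differed at 14 bases, 5 of them in capitals, and Igkv6-32 and Igkv6-17 also at 14, 4 of them in capitals. Over whole coding sequences, which run from 338 to 370 bases, the median identity of a member to its nearest germline relative was 94.3% (72.9% to 98.6%). Of the 86 members, 39 had a relative at 95% identity or more and 36 shared an exact run of 100 bases or more with another segment. No source used here says how reads matching several segments were counted, so values of such segments are uncertain. Igkv6-32 (84.7% to Igkv6-17, longest shared run 37 bases), Igkv14-126 (91.5%, 44 bases) and Igkv16-104 (72.9%, 31 bases) were among the better separated. Igkv1-110 and Igkv1-117 (97.2%, 142 bases) and Igkv10-96 with Igkv10-94 (95.4%, 131 bases) were among the less separated. So was Igkv6-17, with 95.7% identity to Igkv6-25 and a shared run of 152 bases. Igkv12-46 had 95.4% identity to Igkv12-44, with a longest shared run of 55 bases.

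All 86 members matched a GENCODE M21 gene by identifier, and all 86 are annotated there as immunoglobulin variable genes and not as pseudogenes. They span 3.149 Mb of chromosome 6, from 67555497 to 70704177 on GRCm38, with Igkv2-137 farthest from and Igkv3-1 nearest to the joining segments. They belong to 18 families, with 34 on the plus strand, that of Igkc, and 52 on the minus strand. The 14 Igkv rows outside the rule held 19 counts in all, and 9 of them held none. Just inside the count minimum lay Igkv12-89 with 10 counts over the libraries, and just outside lay Igkv8-34 with 8.

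Library totals ran from 15786214 to 22932125 counts. Adamts4, the deleted protease gene, was at 0 in all 3 KO libraries and at 38.5, 50.5 and 56.0 CPM in WT 1 to 3 (read counts per 1000000 counts of the library, its size scaled by edgeR's TMM factor), which fits the labels. Colon epithelium markers were present in every library, with all 8 genes counted and a summed level of 20804 to 27211 CPM in KO and 13649 to 17831 CPM in WT. Among the other listed cell types, 6 of 6 neutrophil genes summed to 6.06 to 34.0 CPM in KO and 85.4 to 197.7 CPM in WT, 5 of 5 erythroid genes to 81.2 to 235.6 and 380.6 to 1698 CPM, and 5 of 5 fibroblast genes to 587 to 3954 and 2043 to 4344 CPM. Muc2, at 11203 to 22797 CPM in KO and 9170 to 13060 CPM in WT, made up much of the epithelium sum and overlapped. Of the 8 epithelium genes only Epcam did not overlap (1388, 1453 and 1638 CPM in KO, 1257, 1239 and 1198 CPM in WT). The fibroblast sums overlapped, as did those of 6 T cell genes (31.7 to 59.0 CPM in KO, 34.2 to 61.7 CPM in WT). The part of tissue make-up in the Igkv results was not tested.

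Igkv RNA took a smaller share of every KO library than of any WT library. The 86 members held 7314, 3408 and 2380 counts in KO 1 to 3 and 18982, 39201 and 14196 in WT 1 to 3. As a share of all counts this was 0.0359%, 0.0216% and 0.0125% in KO and 0.0828%, 0.205% and 0.0793% in WT. The groups did not overlap, with means of 0.0233% ± 0.0118 (SD, n = 3) and 0.122% ± 0.0718 (SD, n = 3), a 5.25-fold difference of means. The log2 ratio of the means was -2.39, and -1.80 without WT 2. WT 2 was the highest library by a wide margin, and the scaled level gave 238 ± 126 CPM in KO and 1202 ± 688 CPM in WT. No p is given for such sums, because the members were chosen with earlier results of these data known.

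**Figure D1:**
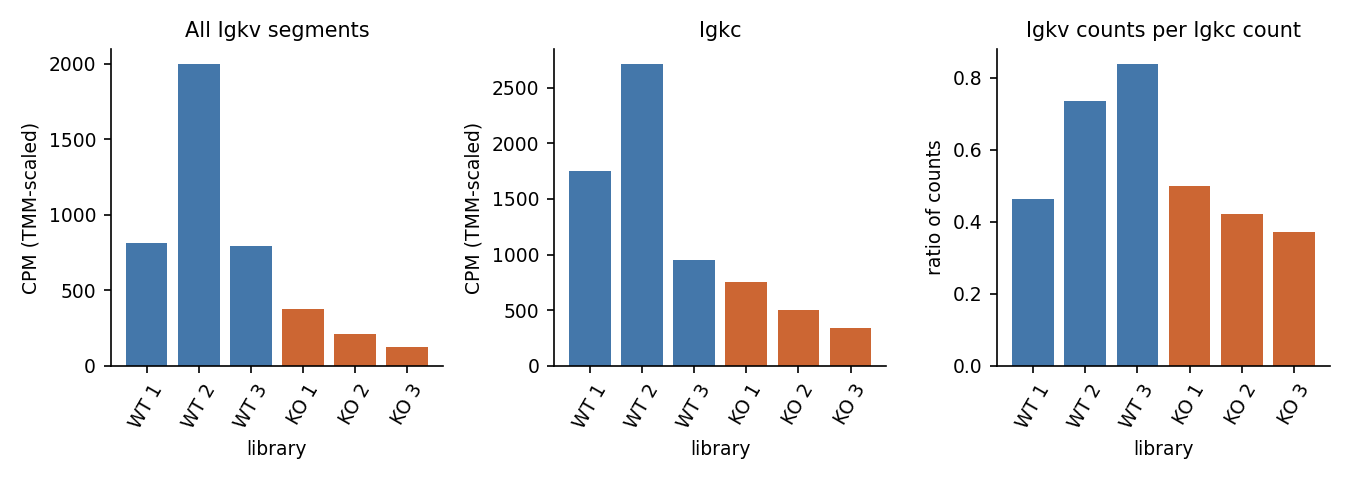
Bars show, for each library, the summed Igkv level in CPM (left), the Igkc level in CPM (middle) and Igkv counts per Igkc count (right), with WT in blue and KO in orange. All 3 KO libraries lie below all 3 WT libraries for Igkv (at most 375.7 against at least 796.9 CPM) and Igkc (at most 749.7 against at least 951.1 CPM), while the ratio overlaps because WT 1 stands at 0.464 and KO 1 at 0.501.

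The kappa constant region Igkc, present on every kappa transcript whatever its variable segment, was measured at 749.7, 499.1 and 342.4 CPM in KO and 1751, 2709 and 951.1 CPM in WT. Its groups did not overlap either, but its log2 fold change (KO minus WT) of -1.77 ± 0.42 (approximate SE) did not pass edgeR's quasi-likelihood test over all genes (adjusted p = 0.154), while DESeq2 gave an adjusted p of 0.000195. Igkv counts per Igkc count were 0.501, 0.423 and 0.373 in KO and 0.464, 0.737 and 0.838 in WT, with overlap. Against the heavy chain, Igkv counts per Ighv count were 1.43, 2.01 and 1.90 in KO and 1.90, 1.77 and 1.76 in WT, with group means of 1.78 ± 0.308 and 1.81 ± 0.0747 (SD, n = 3 each). Among light chain variable counts, kappa took 75.2%, 82.9% and 91.4% in KO and 86.4%, 76.5% and 89.7% in WT, and the lambda segment Iglv1 had a log2 fold change of -2.23 ± 0.95 (edgeR adjusted p = 0.382). The 5 Igkj rows held no count in any library.

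Genes of the B lineage had estimates mostly below 0, none of which passed edgeR's test. Of a list of 49 B lineage genes, 39 were tested. The log2 fold change was below 0 for 30 of them (45.8% of all genes), and the median of the 39 was -0.93. At an adjusted p below 0.05 edgeR called 0 in either direction. At an unadjusted p below 0.05, 13 were lower (7.85% of all genes) and 1 was higher (5.17%). DESeq2 called 8 lower (2.75% of all genes) at an adjusted p below 0.05. Jchain, which joins IgA and IgM into polymers, had 289, 221 and 101 CPM in KO and 570, 1158 and 483 CPM in WT (log2 fold change -1.86 ± 0.46, edgeR adjusted p = 0.163). The plasma cell chaperone Mzb1 (-1.92 ± 0.39, adjusted p = 0.108) and the IgA heavy chain Igha (-2.15 ± 0.55, adjusted p = 0.174) had like values in edgeR. DESeq2 gave an adjusted p of 0.000275 for Jchain, 5.57e-05 for Mzb1 and 0.0559 for Igha. The 1 higher was Sec11c, a signal peptidase subunit, with 91.3, 81.1 and 89.1 CPM in KO and 59.5, 73.4 and 60.01 CPM in WT, without overlap (0.44 ± 0.14, adjusted p = 0.248). Fkbp11 stood at 0.58 ± 0.26 (adjusted p = 0.388); these 2 were picked with their values known. Xbp1, the regulator of secretory capacity that epithelium also expresses, stood at -0.16 ± 0.22 (adjusted p = 0.792) and the epithelial IgA carrier Pigr at -0.05 ± 0.19 (adjusted p = 0.935). The B cell surface gene Ms4a1 stood at 0.07 ± 0.70 (adjusted p = 0.975), the B cell receptor subunit Cd79a at -0.48 ± 0.64 (adjusted p = 0.787) and Ighm, the IgM heavy chain, at -0.93 ± 0.49 (adjusted p = 0.455). Without KO 3 these 3 values were -0.86, -1.82 and -1.73.

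The 6 plasma cell markers, all counted, summed to 698 to 994 CPM in KO and 1081 to 1920 CPM in WT. Xbp1 and Sdc1, which epithelium also expresses, made up much of this sum and overlapped between the groups (389, 257 and 271 CPM in KO and 313, 400 and 315 CPM in WT for Xbp1, and 299, 258 and 319 against 439, 309 and 259 CPM for Sdc1). Jchain, Mzb1 and Derl3 were lower in every KO library than in any WT library, and Tnfrsf17 overlapped. The 7 B cell markers, also all counted, summed to 11.3, 22.2 and 99.1 CPM in KO 1 to 3 and to 37.3 to 62.6 CPM in WT, so KO 3 was the highest and KO 1 the lowest of the 6. Igha counts per Ighm count ran 56.5, 32.4 and 5.32 in KO 1 to 3 and 73.5, 61.7 and 19.8 in WT 1 to 3, lowest in KO 3. The precursor genes Rag1, which cuts DNA for the joining, and Igll1, a part of the surrogate light chain, had no count in any library. Rag2, the partner of Rag1, had 2 counts in WT 2, and Dntt, which adds bases at joins, had 2 each in WT 2 and WT 3, with none in KO. Vpreb1 has no row in the table used here. Igkv counts per Jchain count were 1.30, 0.956 and 1.27 in KO and 1.42, 1.72 and 1.65 in WT, lower in KO without overlap. The part of plasma cell content and of the high B cell level of KO 3 in the segment results was not tested.

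Of the 86 segments, 61 passed edgeR's filter on low counts and 3 were called lower in KO at an adjusted p below 0.05, against 0.151% of all genes tested. None was called higher, against 0.00687% of all genes. At an unadjusted p below 0.05, 45 of the 61 were lower (7.85% of all genes) and 1 was higher (5.17%). The log2 fold change was below 0 for 58 of the 61 (45.8% of all genes) and below -1 for 52 (4.82%), with a median of -2.68 where that of all genes tested was 0.03. These counts describe the 61, which passed a filter that high counts in 1 group are enough to pass. Without the filter all 86 were tested, 83 had a log2 fold change below 0 (47.2% of all genes), 64 were lower at an unadjusted p below 0.05 (7.23%) and 12 were called lower (0.372%). These percentages are over 17758 genes with any count, while members needed a summed count of 10 or more. Among the 86, 8 had no KO count, so they could only fall below 0 and could not lie above WT in CPM. All 3 KO libraries lay below all 3 WT libraries in CPM for 51 of the 86 (10.1% of genes with the same count minimum), and above them for 1 (8.88%). Among the 61 tested this held for 43 lower (10.2% of all genes tested) and 1 higher (9.35%).

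The called segments were Igkv14-126, Igkv16-104 and Igkv12-46. Igkv14-126 had 3, 0 and 1 counts in KO and 158, 84 and 139 in WT, the most even WT level of the 3. It fell by 6.30 ± 0.62 on the log2 scale (edgeR adjusted p = 0.0287). As background, Igkv14-126 is the light chain partner of Ighv11-2 in the antibodies of B-1 cells against phosphatidylcholine. Ighv11-2, looked up after its values were seen, had 9, 1 and 2 counts in KO and 24, 97 and 892 in WT (log2 fold change -6.37 ± 1.56, edgeR adjusted p = 0.163), most of them in WT 3. Igkv14-126 stood at 6.76, 4.28 and 7.80 CPM in WT 1 to 3, also highest in WT 3 but far more even.

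Igkv16-104, the sole member of its family, had 12, 8 and 19 counts in KO and 360, 1311 and 374 in WT. It fell by 5.57 ± 0.67 on the log2 scale (edgeR adjusted p = 0.0434). Igkv12-46 had 20, 22 and 47 counts in KO and 228, 532 and 310 in WT and fell by 3.46 ± 0.47 (adjusted p = 0.0495). In none of the 3 did the groups overlap, and each kept some counts in KO. Leaving out KO 2, KO 3 or WT 3 left 0 of the members called. Igkv12-46 was called in none of the 6 fits that left out a library, and the other 2 in 2 fits each. DESeq2 called 38 lower of the 77 to which it gave an adjusted p (2.75% of all genes) and 1 higher (0.677%).

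Other segments among the 5 lowest fold changes missed edgeR's threshold and passed that of DESeq2. The DESeq2 adjusted p was 0.000133 for Igkv4-63, 4.8e-07 for Igkv2-137 and 1.53e-06 for Igkv4-72. Igkv4-63 had no count in KO and 28, 13 and 36 in WT, at least 22.9-fold lower in KO against a floor of 3 counts over the KO group (edgeR adjusted p = 0.0783). Igkv2-137, the most distal member, had 12, 5 and 14 counts in KO and 261, 1576 and 231 in WT (log2 fold change -5.92 ± 0.94, adjusted p = 0.0595), with 75.7% of its summed CPM in WT 2. Igkv4-72 had 45, 31 and 13 counts in KO and 296, 1315 and 1572 in WT (-5.08 ± 0.77, adjusted p = 0.0595), with 51.1% of its CPM in WT 3. None of these overlapped between the groups, and which WT library led differed from segment to segment.

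No count at all in KO was found for 8 of the 86 members, against 0.254% of genes with the same count minimum, and no member was without counts in WT. These 8 met the count minimum through WT counts alone. Where Igkv counts are higher in WT, the rule admits such members more readily than members without WT counts. After Igkv4-63, those with most counts were Igkv4-62 (15, 42 and 0 in WT, at least 16.9-fold), Igkv5-37 (0, 2 and 43, at least 13.4-fold), Igkv1-132 (1, 0 and 20, at least 6.24-fold) and Igkv3-9 (12, 1 and 4, at least 5.05-fold). Igkv4-62, Igkv5-37 and Igkv1-132 were also without a count in 1 WT library. These bounds, like that of Igkv4-63, pool the libraries of a group and take no account of the spread between libraries. For Igkv5-37 and Igkv1-132 nearly all WT counts came from WT 3. KO libraries together held 13102 Igkv counts and WT libraries 72379, and the part of this difference in depth in the zeros was not tested.

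**Figure D2:**
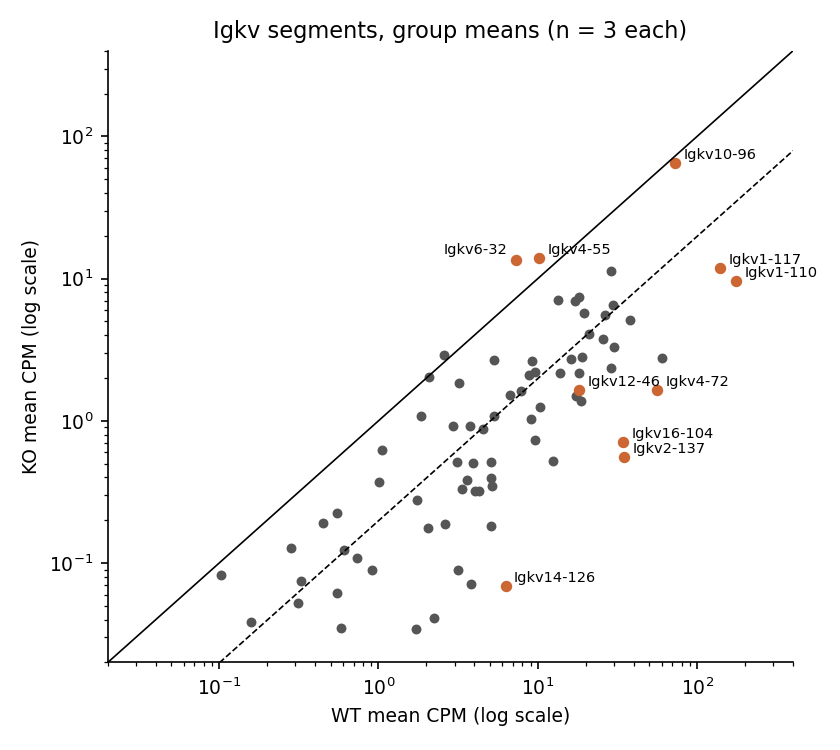
Each point is 1 Igkv segment, with its mean CPM over the 3 WT libraries on the horizontal axis and over the 3 KO libraries on the vertical axis, both on log scales. The solid line marks equal levels and the dashed line the ratio of the summed Igkv levels (5.05-fold lower in KO); orange points are labelled, the 8 members with no KO count cannot be drawn, and Igkv10-96, Igkv6-32 and Igkv4-55 stand far above the dashed line.

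Igkv10-96, the largest segment by mean share, had overlapping levels in the groups. It had 1666, 1516 and 290 counts in KO and 1022, 2130 and 1194 in WT. In CPM this was 85.6, 93.9 and 15.6 in KO and 43.7, 108 and 67.0 in WT, with a log2 fold change of -0.17 ± 0.59 (edgeR adjusted p = 0.925) whose sign differed in 2 of 14 alternatives. Its share of Igkv counts was 22.8%, 44.5% and 12.2% in KO and 5.38%, 5.43% and 8.41% in WT, higher in every KO library. Counting error on these shares was small, with an exact 95% binomial interval of 42.8% to 46.2% in KO 2 and 10.9% to 13.6% in KO 3, though sequenced copies are not independent molecules and such intervals cover counting error only. Igkv10-96 was the leading segment of all 3 KO libraries and of no WT library, also by the authors' length-scaled TPM. The KO share was most unequal, from 12.2% to 44.5%, and KO 3 was the lowest of all 6 libraries in CPM. Without Igkv10-96 the other 85 members summed to 290.1, 117.2 and 112.2 CPM in KO and 768, 1888 and 729.9 CPM in WT, a 6.52-fold difference of means.

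Its family partner Igkv10-94 had 67, 39 and 13 counts in KO and 196, 716 and 165 in WT, without overlap in CPM. Igkv10-94 had a log2 fold change of -3.04 ± 0.73 (edgeR adjusted p = 0.154, DESeq2 adjusted p = 0.027), although the pair are 95.4% identical in coding sequence and differ in the capital bases shown above.

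Igkv6-32 was the only member whose CPM was higher in every KO library than in any WT library. It had 285, 204 and 242 counts in KO and 156, 133 and 148 in WT, or 14.6, 12.6 and 13.0 CPM against 6.67, 6.77 and 8.31 CPM. The log2 fold change of 0.89 ± 0.19 missed edgeR's threshold (adjusted p = 0.124) and passed that of DESeq2 (adjusted p = 0.0073). Its share of Igkv counts was 3.90%, 5.99% and 10.2% in KO and 0.822%, 0.339% and 1.04% in WT. Unlike the other leading segments, Igkv6-32 was even within each group, with a coefficient of variation of its CPM of 7.96% in KO and 12.6% in WT, where Igkv10-96 had 66.2% and 44.9% and Igkv1-110 had 93.6% and 50.9%. Its nearest relative Igkv6-17 had 37, 28 and 16 counts in KO and 350, 550 and 156 in WT, a log2 fold change of -3.52 ± 0.50 (edgeR adjusted p = 0.0525, DESeq2 adjusted p = 1.04e-11).

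Igkv1-110 was the leading segment of WT 1 and WT 3 and Igkv1-117 that of WT 2. In WT 3 the second segment was Igkv4-72, with 11.1% of Igkv counts. Igkv1-110 held 17.3%, 13.9% and 13.6% of Igkv counts in WT and 5.30%, 2.88% and 2.31% in KO. Its level was 141, 277 and 109 CPM in WT and 19.9, 6.07 and 2.95 CPM in KO, a log2 fold change of -4.18 ± 0.70 that missed edgeR's threshold (adjusted p = 0.0683) and passed DESeq2's (adjusted p = 0.000235). Igkv1-117 held 10.9%, 14.1% and 6.19% in WT and 6.81%, 1.99% and 4.62% in KO, with overlapping shares. In CPM it did not overlap, at 88.8, 282 and 49.3 in WT and 25.6, 4.21 and 5.90 in KO (-3.55 ± 0.85, edgeR adjusted p = 0.154, DESeq2 adjusted p = 0.0193). WT 2 held 61.9% of the summed CPM of Igkv1-117. Reads may have been split between these near-identical segments, so their sum is given too. Together they held 45.5, 10.3 and 8.86 CPM in KO and 229, 559 and 158 CPM in WT, without overlap.

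The other segments at the high end of the fold changes were uneven between the libraries of a group. Igkv4-55 had 763, 15 and 34 counts in KO and 273, 330 and 37 in WT (log2 fold change 0.46 ± 1.23, edgeR adjusted p = 0.903). In KO 1 it was the second segment with 10.4% of Igkv counts, and in KO 2 it held 0.440%. Igkv4-86 had 148, 5 and 15 counts in KO and 148, 25 and 2 in WT (0.17 ± 1.27, adjusted p = 0.968). Igkv8-19 had 10, 83 and 9 in KO and 12, 18 and 85 in WT (-0.02 ± 1.07, adjusted p = 0.998). These 3 overlapped between the groups, and each took either sign as libraries were left out in turn.

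The remaining segments with large shares or uneven levels had estimates below 0 that did not pass in edgeR. Igkv5-43, 98.6% identical to Igkv5-45, had 550, 83 and 15 counts in KO and 356, 964 and 396 in WT (-1.33 ± 0.97, adjusted p = 0.605). Igkv4-59 (-1.29 ± 0.57, adjusted p = 0.386), Igkv1-135 (-2.17 ± 0.64, adjusted p = 0.223) and Igkv8-30 (-2.23 ± 0.64, adjusted p = 0.219) each held between 2% and 4% of Igkv counts on average in both groups. Igkv6-23 (-2.86 ± 0.85, adjusted p = 0.229) and Igkv3-2 (-4.44 ± 1.12, adjusted p = 0.169) had 57.1% and 74.8% of their summed CPM in WT 2. Of the segments named in this paragraph DESeq2 passed only Igkv3-2 (adjusted p = 0.0344). Such unevenness was common: 47 of the 86 members had over 50% of their summed CPM in 1 library, which was WT 2 for 27, WT 3 for 10, WT 1 for 9 and KO 1 for 1.

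Family shares moved with those of the leading segments. Family Igkv1, with 8 members, took 15.3%, 6.40% and 11.6% of Igkv counts in KO and 32.1%, 31.1% and 22.9% in WT. The group means were 11.1% ± 4.48 and 28.7% ± 5.06 (SD, n = 3 each), without overlap. The other 6 members, without Igkv1-110 and Igkv1-117, together held 3.12% ± 1.55 in KO and 3.33% ± 0.438 in WT, with overlap. Family Igkv10, with 2 members, took 23.7%, 45.6% and 12.7% in KO and 6.42%, 7.26% and 9.57% in WT, also without overlap (27.4% ± 16.8 and 7.75% ± 1.63). The difference of these means, 19.6 percentage points, was 10.5 without KO 2. Igkv10-96 held 95.7% to 97.5% of this family's counts in KO and 74.8% to 87.9% in WT, and no other family was higher in every KO library.

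Family Igkv4, the largest with 21 members, took 24.6%, 9.54% and 12.2% in KO and 10.7%, 8.66% and 25.4% in WT, high in KO 1 through Igkv4-55 and in WT 3 through Igkv4-72. Family Igkv6 took 9.20%, 13.6% and 18.2% in KO and 13.3%, 8.78% and 7.50% in WT. Its leading segment was Igkv6-32 in all 3 KO libraries, Igkv6-23 in WT 1 and WT 2 and Igkv6-25 in WT 3, so overlapping family shares covered different segments. Families Igkv3 (6.09% ± 4.07 in KO, 9.37% ± 4.20 in WT), Igkv8 (6.48% ± 2.31 and 6.22% ± 0.513) and Igkv5 (6.21% ± 5.77 and 3.88% ± 0.576) overlapped too. Among the small families, Igkv2 (1.09% ± 0.719 and 3.38% ± 1.46) and Igkv16 (0.399% ± 0.348 and 2.63% ± 0.724) were lower in KO without overlap. Shares within a library sum to a fixed total, so a high Igkv10-96 share lowers all others.

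**Figure D3:**
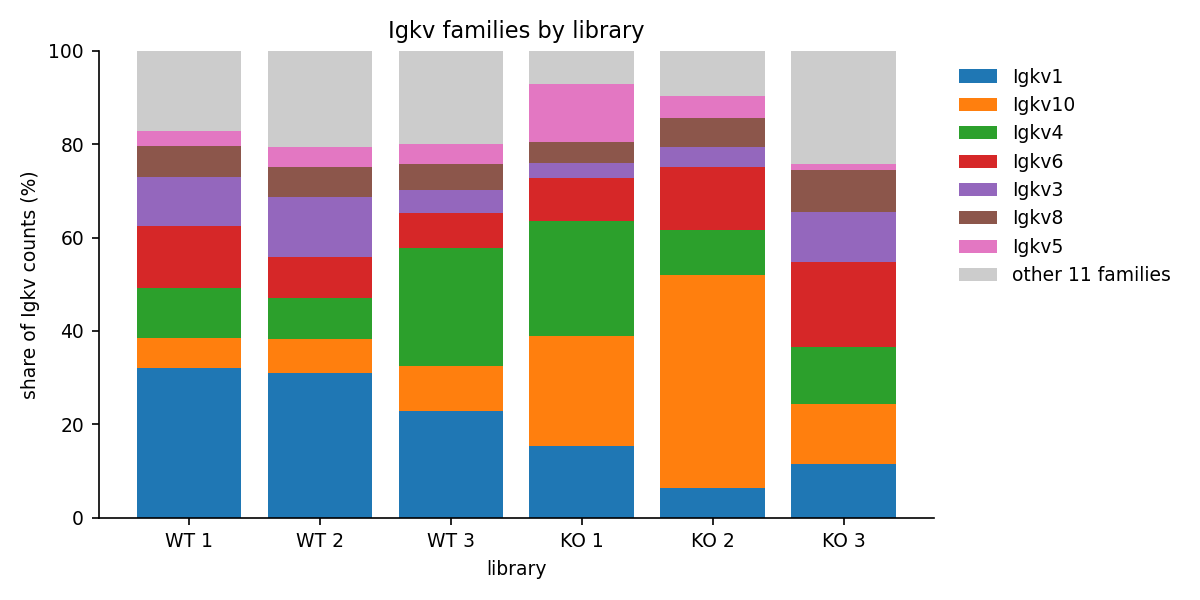
Stacked bars give the share of Igkv counts (percent, vertical axis) that each family took in each library, with the 7 families above 5% on average coloured and the other 11 in grey. Family Igkv1 takes 22.9% to 32.1% in the WT libraries and 6.40% to 15.3% in the KO libraries, while family Igkv10 reaches 45.6% in KO 2.

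By segment, the share of Igkv counts was lower in every KO library than in any WT library for 11 of the 86 members (12.8%) and higher for 2 (2.33%), Igkv10-96 and Igkv6-32. The same count among the 86 Ighv segments with the same count minimum was 13 lower (15.1%) and 4 higher (4.65%). The 11 lower ones were Igkv1-110, Igkv4-72, Igkv16-104, Igkv2-137, Igkv6-17, Igkv14-126, Igkv6-13, Igkv4-63, Igkv3-9, Igkv12-38 and Igkv9-129, the last 4 without a count in KO. Those 4 met the count minimum through WT counts alone and could not have been higher in KO, so the rule itself adds to the lower side. The families of the 11 differ, and only Igkv6-17 and Igkv6-13 share one with Igkv6-32.

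The shared part of 2 libraries' repertoires, the sum over segments of the smaller share, was 66.5% to 74.6% between WT libraries. It was 48.7% to 58.9% between KO libraries and 41.7% to 54.4% between a KO and a WT library. The KO libraries were thus less like each other than the WT libraries were. Without Igkv10-96 the ranges were 65.6% to 73.2%, 50.7% to 57.4% and 46.7% to 58.6%, so KO pairs and mixed pairs then covered like ranges. Each KO library held fewer Igkv counts than any WT library, and the part of this depth in the overlaps was not tested.

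Diversity was lower in 2 of the KO libraries, and the difference in means changed sign without Igkv10-96. The effective number of segments, the exponential of the Shannon entropy of the shares, was 21.3, 15.1 and 30.4 in KO and 33.2, 29.1 and 31.6 in WT. KO 3 lay within the WT range, and the means were 22.2 ± 7.71 and 31.3 ± 2.07 (SD, n = 3 each). The difference of means (KO minus WT) of -9.07 was -5.47 without KO 2. Without Igkv10-96 the values were 26.2, 38.4 and 32.0 in KO and 32.5, 28.3 and 31.7 in WT, and KO 2 became the most diverse library of the 6. The Simpson number, which weighs the common segments more, went from 11.5, 4.79 and 19.9 in KO against 17.5, 16.8 and 18.7 in WT to 17.2, 27.9 and 21.7 against 16.5, 15.8 and 18.1 once Igkv10-96 was removed. The direction of the difference in means reversed in both measures. Igkv10-96 led every KO library and no WT library, and the WT leaders were kept, so this removal alone favours diversity in KO. The reversal therefore cannot show that the difference depends on this segment. Removing each library's own leading segment was not tested.

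Counts of detected segments did not overlap. A count was found for 70, 71 and 68 members in KO and 84, 83 and 83 in WT, and 58 were found in all 6 libraries. After thinning every library to the 2380 Igkv counts of KO 3, the expected number was 62.6, 68.6 and 68.0 in KO and 74.0, 71.0 and 73.9 in WT, still lower in every KO library. Both measures use the same members, 8 of which met the count minimum through WT counts alone and none through KO counts alone. The choice of members thus favours detection in WT, and its part in these gaps was not tested. The segments needed to reach 50% of the counts numbered 5, 2 and 8 in KO and 8, 7 and 8 in WT, and to reach 90% they numbered 24, 27 and 31 in KO and 37, 30 and 33 in WT. For the heavy chain the effective number of Ighv segments was 24.8, 30.1 and 21.8 in KO and 38.8, 35.9 and 35.3 in WT, so there KO 3 was the lowest and KO 2 the highest of the KO libraries, the reverse of their order for kappa.

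**Figure D4:**
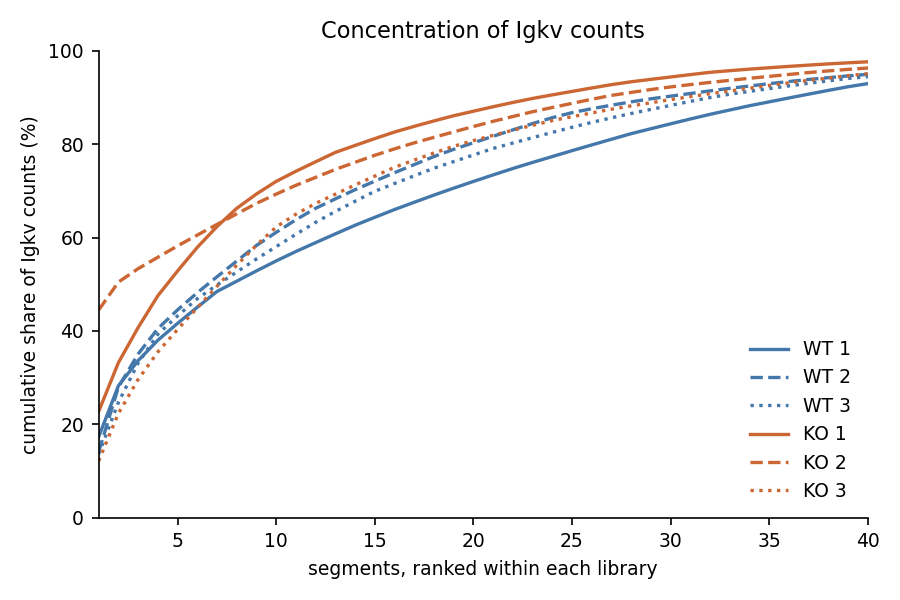
Lines give the cumulative share of Igkv counts (percent, vertical axis) against the number of segments, ranked by share within each library, with WT in blue and KO in orange. KO 2 starts at 44.5% with Igkv10-96 alone and KO 1 at 22.8%, while KO 3 starts at 12.2% and runs among the WT libraries.

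Along the locus the KO libraries held less of their Igkv counts on plus-strand segments. Plus-strand segments took 22.9%, 18.8% and 37.2% in KO and 57.6%, 59.2% and 43.3% in WT, without overlap. Without the minus-strand Igkv10-96 the shares were 29.6%, 33.8% and 42.4% in KO and 60.9%, 62.6% and 47.3% in WT, still apart. Without the plus-strand pair Igkv1-110 and Igkv1-117 they were 12.3%, 14.6% and 32.6% in KO and 40.9%, 43.3% and 29.3% in WT, and the groups overlapped, KO 3 lying above WT 3. With Igkv10-96 removed as well as this pair, they were 16.55%, 27.46% and 37.45% in KO and 44.2%, 46.88% and 32.7% in WT, again with overlap. All these removals, here and for the distances below, were chosen after seeing the data. As background, segments that point the same way as Igkj join it by deletion of the DNA between them and the others by inversion, and the counts here say nothing of how a join was made. Igkv1-110 and Igkv1-117 lie on the plus strand, 2451 and 2601 kb upstream of Igkj1. The share-weighted mean distance from Igkj1 was 1551, 1602 and 1363 kb in KO and 1611, 1660 and 1674 kb in WT. Without Igkv10-96, which lies 2090 kb upstream, it was 1391, 1211 and 1262 kb in KO and 1584, 1635 and 1635 kb in WT. Without Igkv1-110 and Igkv1-117 instead, the distances overlapped, at 1415, 1556 and 1275 kb in KO and 1257, 1323 and 1470 kb in WT. With Igkv10-96 removed as well as this pair, they were 1178.5, 1086 and 1152 kb in KO and 1189.7, 1260.2 and 1396.8 kb in WT. The groups then did not overlap, though KO 1 lay close to WT 1. With all members, the share from the more distal 50% of segments overlapped, at 54.1%, 63.1% and 43.6% in KO and 59.2%, 61.9% and 67.4% in WT.

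**Figure D5:**
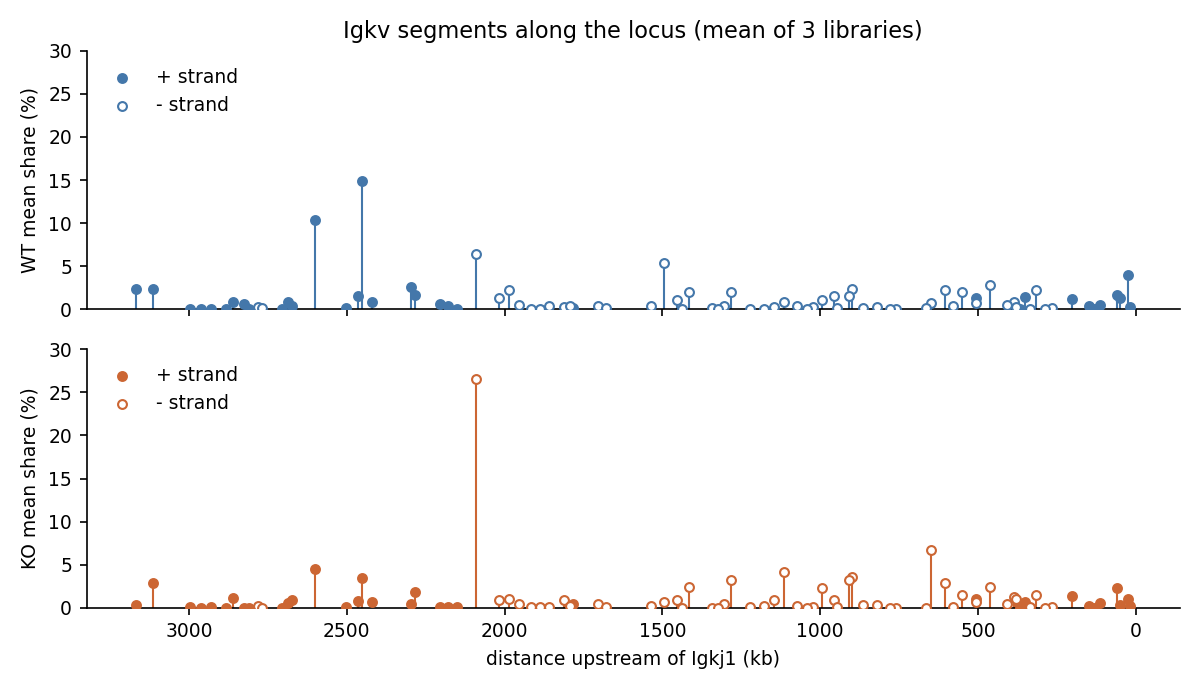
Each stem is 1 Igkv segment at its distance upstream of Igkj1 (kb, horizontal axis), with its mean share of Igkv counts over the 3 libraries of a group as height (percent), WT above and KO below, filled for plus-strand and open for minus-strand segments. Igkv1-117 and Igkv1-110 near 2600.7 and 2451.3 kb stand highest in WT, and Igkv10-96 at 2090.1 kb stands highest in KO at 26.5%.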

How the data were processed

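RNA of colon was sequenced from 3 KO and 3 WT libraries made with a SMARTER mRNA kit from Trizol extracts, per the labels' protocols. Whole-number read counts per gene and TPM values were used as deposited by the authors. The deposited log2 ratios, p-values and group means of the authors were not used. Of genome builds, GRCm38, mm10 and mm39 appear in the submitters' processing notes with no role stated. The aligner, counter, annotation and strand setting were not given in the sources used here, and the rows of 30 genes have no symbol.

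The main test was edgeR 4.0.16 (R 4.3.3) with TMM factors, its default count filter (14553 genes) and its quasi-likelihood test, Benjamini-Hochberg adjusted over all genes tested and called below 0.05. DESeq2 1.42.0, limma 3.58.1, other factors and filters, a replicate block and leaving out each library were alternatives. The scripts were tested on simulated data. Members, lists and tests were chosen with earlier results of these data known. Named segments were those called, those with the 10 largest mean shares or at least 10% of a library, the 5 highest and 5 lowest fold changes, and up to 5 each held by 1 library or by 1 group. Positions and sequences came from GENCODE M21 (GRCm38), matched by identifier.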

Additional observations from a re-analysis of the deposited data

How the results depend on the processing

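The 3 segments called lower in KO by edgeR were 1 with median-ratio factors, 6 with upper-quartile factors, 12 without the count filter, 15 with limma on log2(TPM + 1), 17 at an adjusted p below 0.1 and 38 with DESeq2, which alone called 1 higher. Leaving out 1 library at a time gave 0 to 3. For the B lineage list, with 0 called, DESeq2 called 8 lower and leaving out libraries gave 0 to 1, the 1 without KO 1. Same-numbered libraries did not deviate together (r = -0.419, -0.15 and -0.429). With 3 libraries per group this cannot tell whether the numbers mark a shared litter or batch, and the labels do not say. A replicate block gave 13 segments called lower and 0 of the B lineage list. The log2 ratio of the Igkv share (-2.39) was -0.65 per Igkc count and -2.85 to -1.80 with libraries left out. The difference in effective number (-9.07) was 1.39 without Igkv10-96, 5.47 as a Simpson number without it, an alternative chosen after seeing the data, and -13.1 to -5.47 with libraries left out. Family Igkv10 (19.6 percentage points) was -0.14 without Igkv10-96 and 10.5 to 26.9 with libraries left out, and family Igkv1 (-17.6) was -20.5 to -15.3. The difference in mean distance from Igkj1 (-142.8 kb) was 65.2 kb without Igkv1-110 and Igkv1-117. With Igkv10-96 removed as well as this pair, the distances were 1086 to 1178.5 kb in KO and 1189.7 to 1396.8 kb in WT, again lower in KO. Without Igkv10-96 alone KO also stayed lower without overlap. For the counts of calls the cause was not tested. KO libraries held 2380 to 7314 Igkv counts, and what this limits among rare segments was not tested.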
